A study of Rattus norvegicus with 10 samples.

Results

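Axon guidance ligands and receptors were followed in the hippocampus of injured and sham-operated rats. They comprised every gene of the deposited expression table whose symbol begins with Sema, Plxn, Nrp, Epha, Ephb, Efna, Efnb, Slit and a digit, Robo, Ntn or Unc5, which gave 62 genes among 23824 features. They fell into 19 semaphorins, 6 plexins and neuropilins, 11 Eph receptors, 7 ephrins, 7 Slits and Robos, and 12 netrins and Unc5 proteins. Some relatives, such as Efna3, Plxna1, Ephb4 and Sema6a, were not among the 62. Rankings within a family therefore hold only for the genes measured. The choice used symbols and no measured value. It also took in Unc50, a membrane trafficking protein that is no netrin receptor, and Unc5cl, a relative of the Unc5 proteins. Ntn3 was measured only as a locus shared with the vesicle trafficking gene Tbc1d24, so its own level cannot be told. Epha3, Ephb2, Nrp2 and Robo4 each stood on 2 loci, which were summed.

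The libraries came from male Sprague-Dawley rats of 200 to 240 g, an outbred strain, either subjected to traumatic brain injury (TBI) by fluid percussion, a pulse of fluid against the dura, or given sham surgery. Learning was tested 1 week after surgery, and the hippocampus was then dissected and its poly-A RNA sequenced, in 5 sham and 5 TBI libraries. The sources used here give neither the rats' age nor the severity of the injury nor the side dissected. Whether every library came from its own rat is not stated in the labels, and the p-values therefore describe only how these libraries spread, which may be technical.

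Guidance cues steer growing axons by attraction or repulsion. Semaphorins act on plexins, with neuropilins as co-receptors for most secreted class 3 semaphorins. Ephrins on one cell bind Eph receptors on another, the A ephrins anchored by a lipid and the B ephrins spanning the membrane. Slits bind Robos, and netrins bind Dcc and the Unc5 receptors. In the adult hippocampus the same families are known for roles at synapses, in the mossy fibres and in the placement of newborn granule cells.

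Values are FPKM, fragment numbers scaled to the length of the transcript and to the mapped fragments of the library, so levels of different genes can be set side by side per length. Of the 62 genes, 58 had a mean of at least 0.5 FPKM over the 10 libraries and were tested, within a fit of all 16194 features that met this minimum. The 4 that did not were Epha1, at 0.0481 to 0.349 FPKM, Robo4, a Robo of endothelial cells, at 0.146 to 0.582, Ntn5, at 0.0368 to 0.594, and Unc5cl, listed at 0 in 8 libraries and at 0.0684 in sham 4 and 0.0509 in TBI 2.

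The libraries differed in tissue content. The choroid plexus product Ttr ran from 34.5 to 32233 FPKM, and all 13 choroid plexus markers found summed to 104 to 32857 FPKM in sham and 150 to 34441 after TBI. The 12 meningeal and matrix markers found summed to 53.9 to 853 FPKM in sham and 58.0 to 949 after TBI, with the highest sums in TBI 1, sham 2 and sham 4. Col1a2 of that list was at 0 in every library. Hippocampal markers were present, with Prox1, a transcription factor of dentate granule cells, at 6.99 to 22.1 FPKM, Neurod6, a transcription factor of pyramidal neurons, at 43.9 to 143, and Camk2a at 749 to 2221, while Fibcd1 was listed at 0 in every library. The 10 hippocampal neuron markers found summed to 1519 FPKM in TBI 1 and to 2246 to 3744 in the other 9 libraries. The sum of all FPKM lay between 523239 and 629660 per library. In bulk tissue, fewer cells of a type and less RNA per cell cannot be told apart.

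No axon guidance gene differed between injured and sham hippocampus beyond the spread between libraries. Limma's test called 0 of the 58 genes at an adjusted p under 0.05, against 0.0% of all 16194 features, and the exact permutation test also called 0. At an unadjusted p under 0.05, limma counted 0 of the 58 and 2.91% of all features, and the permutation test counted 1 of the 58, Sema3g, and 3.51% of all features. The groups overlapped in each of the 58 genes, while 0.482% of all features had groups that did not overlap. The adjusted p in limma's test lay between 0.983 and 1.00 for the 58 genes. Counts by direction used the log2(FPKM + 0.5) scale of the test. The mean was lower after TBI in 36 of the 58 genes, or 62.1%, against 49.6% of all features. The median log2 difference was -0.05 against 0.0013. Without TBI 1 the count was 30 of 58 with a median of -0.0036, where 46.4% of all features had a lower mean. Without sham 2, sham 4 and TBI 1 it was 25 of 58 with a median of 0.02, against 47.7%. With any other single library left out it was 33 to 40 of 58, against 48.1% to 51.7%.

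The precision of this comparison differed between genes. The 95% interval of the log2 difference lay wholly within 1 unit either way in 54 of the 58 genes, and within 0.5 units in 26. The 4 genes with wider intervals were Sema3a, Sema3f, Efna5 and Slit2, whose upper bounds lay between 1.13 and 1.61. Differences are on the log2(FPKM + 0.5) scale, which understates the change of genes at low levels. The permutation test could give no p below 0.00794 with 5 libraries against 5. How many reads lie behind a value is unknown.

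**Figure D1:**
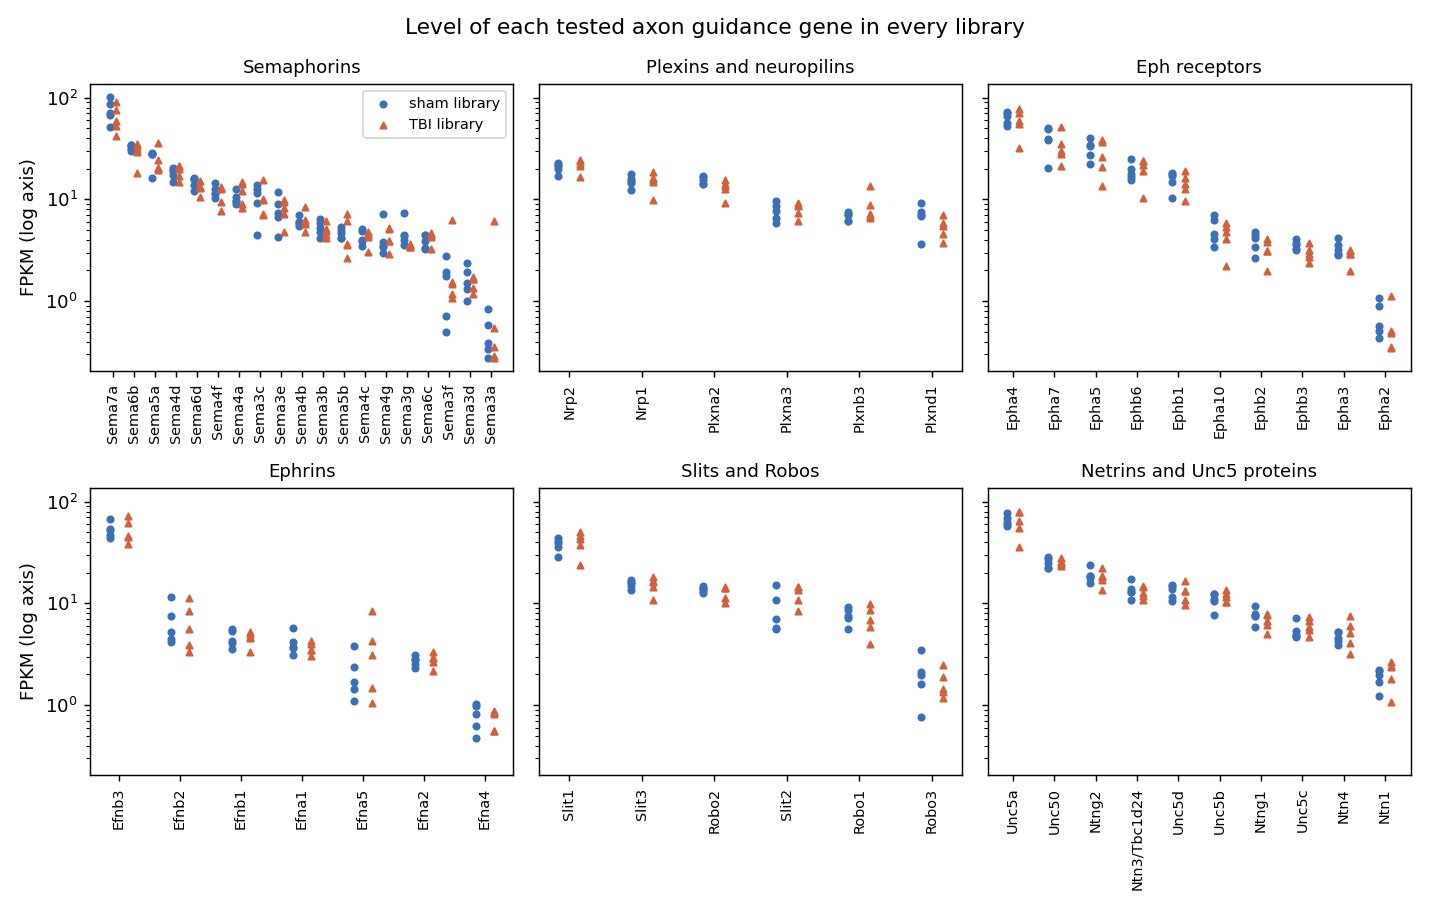
FPKM (log axis) of the 58 tested genes in each library, 1 panel per family, ordered by mean level; blue circles are the 5 sham libraries and orange triangles the 5 TBI libraries. The groups overlap in every gene, and single TBI points stand apart in Sema3a and Sema3f.

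Among the semaphorins, levels ran from a mean of 1.00 to one of 69.8 FPKM. Sema7a, a lipid-anchored semaphorin, had the highest mean of all 62 genes. Unc5a, Efnb3 and Epha4 each exceeded it in sham 1, TBI 2 and TBI 4, and Efnb3 also in TBI 1. The level of Sema7a in the sham libraries numbered 1 to 5 was 51.7, 70.4, 86.1, 67.9 and 102 FPKM. In the TBI libraries it was 42.2, 58.5, 75.3, 53.0 and 90.2. Every Sema7a value lay above every value of the next semaphorin, Sema6b. Sema6b, a transmembrane semaphorin that binds A plexins, was at 29.6 to 34.2 FPKM in sham, at 29.5 to 35.1 in 4 TBI libraries and at 18.1 in TBI 1. Below it the ranges of neighbours overlapped down to the lowest gene of the family. Sema5a, which carries thrombospondin repeats, had a mean of 24.9 FPKM, Sema4d, a ligand of plexin B1, of 18.5, and Sema6d of 13.9. Sema4f, Sema4a and Sema3c followed at means of 11.6, 10.97 and 10.1 FPKM and could not be ordered, Sema4f lying above Sema4a in 6 of 10 libraries and Sema4a above Sema3c in 4. The secreted class 3 members were otherwise lower, with means of 7.83 FPKM for Sema3e, a ligand that binds plexin D1 directly, 5.12 for Sema3b, 4.12 for Sema3g, 1.93 for Sema3f, 1.56 for Sema3d and 1.00 for Sema3a. The remaining semaphorins, Sema4b, Sema5b, Sema4c, Sema4g and Sema6c, had means between 4.05 and 6.14 FPKM.

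The semaphorin with the smallest p was Sema3g, a secreted semaphorin known from endothelial cells. It was at 3.59, 3.96, 4.42, 7.41 and 4.37 FPKM in sham 1 to 5, and at 3.42, 3.45, 3.40, 3.57 and 3.62 in TBI 1 to 5. All 5 TBI libraries lay below the sham mean within a narrow band, and the groups overlapped through sham 1. The sham mean was 4.75 ± 1.52 FPKM and the TBI mean 3.49 ± 0.0962 (SD, n = 5), a log2 difference of -0.35 (95% interval -0.71 to 0.0003) with limma's adjusted p = 0.983 and an exact permutation p of 0.0159 before adjustment. Without sham 4 the difference was -0.20. Sham 4 also had the highest sum of 11 endothelial and pericyte markers, 287 FPKM. The other sham libraries had 170 to 222 and the TBI libraries 143 to 226. The 226 belonged to TBI 1, where Sema3g was at 3.42. Of these markers, Flt1 was highest in sham 5, Kdr and Pecam1 in TBI 1, and the rest in sham 4. The part of these cells in the Sema3g values was not tested.

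Sema6d and Sema7a had the next smallest p. Sema6d had a sham mean of 14.8 ± 1.77 FPKM and a TBI mean of 13.0 ± 1.56 (SD, n = 5; log2 difference -0.18, 95% interval -0.42 to 0.06). Sema7a was at 75.7 ± 19.2 and 63.9 ± 19.0 FPKM (-0.26, interval -0.75 to 0.24), and Sema6b at 32.5 ± 2.03 and 29.5 ± 6.74 (-0.17, interval -0.52 to 0.18). Each of these intervals includes 0. Without TBI 1 the differences were -0.12 for Sema7a and -0.0055 for Sema6b, and without TBI 4 that of Sema6d was -0.11. Sema7a was also at -0.14 without sham 5 and at -0.39 without TBI 5. Of the 19 semaphorins, 8 had a higher and 11 a lower mean after TBI, and the median difference was -0.02. None passed limma's test.

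Neuropilins and plexins, the receptors of the semaphorins, were measured at moderate levels. Nrp2, the neuropilin preferred by Sema3f, was at 22.6, 21.5, 21.6, 19.7 and 17.1 FPKM in sham 1 to 5, and at 16.5, 23.7, 21.2, 24.4 and 22.5 in TBI 1 to 5. Nrp1, the neuropilin that binds Sema3a, was at 12.3, 15.2, 16.0, 14.4 and 17.9 in sham and at 9.89, 14.8, 18.5, 15.5 and 16.2 after TBI. Nrp2 lay above Nrp1 in 9 of 10 libraries, and both were lowest in TBI 1. The log2 differences were 0.07 for Nrp2 (95% interval -0.19 to 0.33) and -0.03 for Nrp1 (interval -0.38 to 0.31).

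Among the 4 plexins measured, Plxna2, a receptor for class 6 and, with neuropilins, class 3 semaphorins, was the most abundant. It was at 14.2, 14.1, 16.6, 15.4 and 16.8 FPKM in sham and at 9.17, 13.4, 15.5, 12.7 and 14.2 in TBI 1 to 5. Its log2 difference of -0.25 (95% interval -0.54 to 0.03) was -0.14 without TBI 1. Plxnb3, the plexin that binds Sema5a, was at 6.06 to 7.58 FPKM in sham and at 7.25, 8.89, 13.4, 6.87 and 6.58 in TBI 1 to 5. The high value of TBI 3 stood out, and the difference of 0.28 (interval -0.11 to 0.66) was 0.11 without it. TBI 3 also had the highest sum of the 11 microglia and macrophage markers, 349 FPKM against 176 to 248 elsewhere, and of the 6 oligodendrocyte precursor markers, 146 FPKM against 91.1 to 141. The 141 belonged to TBI 5, where Plxnb3 was at 6.58. Of the precursor markers, Gpr17, Sox10 and Cspg4 were highest in TBI 3, but Olig1, Olig2 and Pdgfra in other libraries. The 9 oligodendrocyte and myelin markers summed to 5670 FPKM in TBI 3, below 6239 in sham 5 and 6233 in TBI 5. Plxnb3 was at 7.06 in sham 5. The part of these cells in the Plxnb3 values was not tested. Plxnd1, the Sema3e receptor, was at 6.86 ± 2.01 and 5.32 ± 1.29 FPKM (-0.31, interval -0.82 to 0.19), with values from 3.64 in sham 1 to 9.17 in sham 4. Its difference was -0.20 without sham 4 or without TBI 2, and -0.51 without sham 1. Plxna3 had a mean of 7.82 FPKM. Of the 6 genes of this family 3 had a higher and 3 a lower mean after TBI, and none passed.

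The Eph receptors measured were led by Epha4, which binds ephrins of both classes. Epha4 was at 52.5, 65.4, 70.5, 56.7 and 72.6 FPKM in sham 1 to 5, and at 32.1, 59.5, 71.4, 55.5 and 76.8 in TBI 1 to 5. Only TBI 1 lay outside the range of the sham libraries on the low side, and only TBI 5 on the high side. Epha7 and Epha5, receptors of the A ephrins, had means of 36.3 and 29.2 FPKM. Epha4 lay above Epha7 in 10 of 10 libraries and Epha7 above Epha5 in 8. Ephb6, an Eph receptor without kinase activity, had a mean of 19.3 FPKM, and Ephb1, a receptor of the B ephrins, of 14.96. The other 5 tested receptors were at a lower level, with means of 4.76 FPKM for Epha10, 3.56 for Ephb2, 3.27 for Ephb3, 3.07 for Epha3 and 0.629 for Epha2. Every Ephb1 value lay above every Epha10 value.

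Of the 10 Eph receptors tested, 9 had a lower mean after TBI and 1 a higher one, with a median log2 difference of -0.20, against 49.6% of all features with a lower mean. This count moved with TBI 1, in which 8 of the 10 had their lowest value of all libraries. Without TBI 1, 6 of the 10 had a lower mean, against 46.4% of all features, and the median was -0.08. Ephb3 was at 3.72, 3.58, 3.24, 3.20 and 4.09 FPKM in sham and at 2.39, 3.69, 3.21, 2.74 and 2.89 after TBI, the smallest p of the family (log2 difference -0.23, 95% interval -0.49 to 0.03, limma's adjusted p = 0.983). Epha3 was at 3.34 ± 0.559 and 2.80 ± 0.477 FPKM (-0.22, interval -0.53 to 0.09), with all 5 TBI libraries below the sham mean on the log2 scale. Ephb2 was at 3.92 ± 0.867 and 3.21 ± 0.817 (-0.26, interval -0.68 to 0.17). The differences of the most abundant receptors were -0.15 for Epha4 (interval -0.62 to 0.31) and -0.24 for Epha7 (interval -0.84 to 0.36), and that of Epha4 was 0.05 without TBI 1. Without that library the differences were also smaller in Ephb2, at -0.12, in Epha3, at -0.12, and in Epha7, at -0.10. Epha7 moved with other libraries as well, from -0.14 without sham 5 to -0.46 without sham 1.

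**Figure D2:**
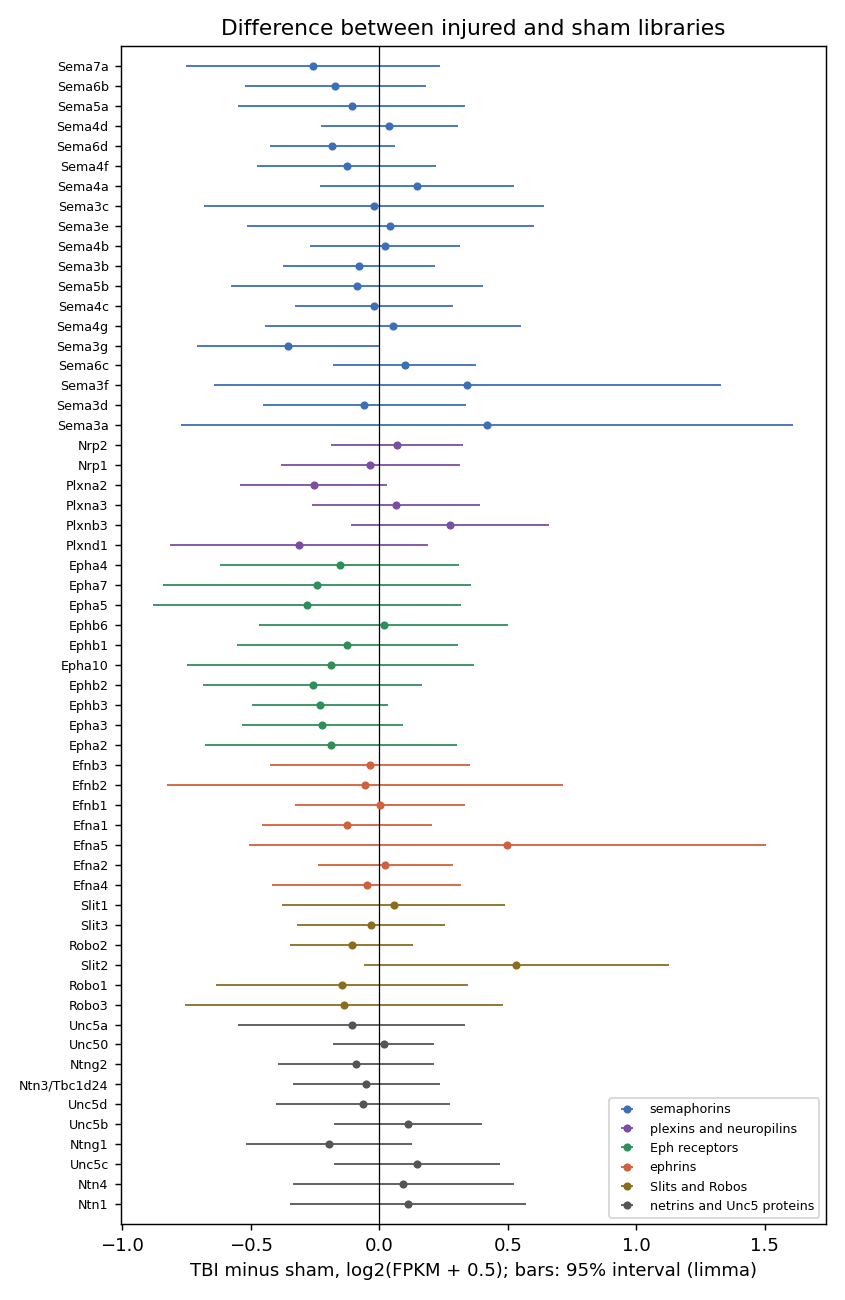
Log2 difference (TBI minus sham, on log2(FPKM + 0.5)) of the 58 tested genes, ordered by family and level; points are limma estimates from 5 against 5 libraries and bars their 95% intervals. Every bar reaches or crosses 0, and 9 of the 10 Eph receptors lie left of it.

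Among their ligands, Efnb3 stood far above the other ephrins measured. This transmembrane ephrin was at 67.9, 47.1, 52.2, 54.2 and 44.3 FPKM in sham 1 to 5, and at 45.8, 61.6, 38.6, 72.7 and 44.6 in TBI 1 to 5. Every Efnb3 value lay above every Efnb2 value, and the log2 difference was -0.04 (95% interval -0.43 to 0.36). Efnb2, the B ephrin next in level, was at 11.5, 4.17, 5.28, 7.53 and 4.42 FPKM in sham and at 5.54, 8.43, 3.89, 11.2 and 3.30 after TBI. Each group thus held low and high values, and the difference was -0.06 (interval -0.83 to 0.72). Efnb1 and the A ephrins Efna1, Efna5 and Efna2 had means of 4.56, 3.85, 2.88 and 2.76 FPKM with overlapping ranges, and Efna4 was lowest at 0.759.

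Efna5, a ligand of the EphA receptors, varied most of the ephrins. It was at 3.82, 1.09, 1.68, 2.35 and 1.44 FPKM in sham 1 to 5, and at 8.48, 3.14, 1.46, 4.26 and 1.04 in TBI 1 to 5. TBI 1 was the highest and TBI 5 the lowest of all libraries. The log2 difference was 0.50 (95% interval -0.51 to 1.51, limma's adjusted p = 0.983), and 0.15 without TBI 1. Efna1 was at 4.06 ± 0.988 and 3.64 ± 0.486 FPKM (-0.13, interval -0.46 to 0.21), and Efna4 at 0.784 ± 0.232 and 0.734 ± 0.162 (-0.05, interval -0.42 to 0.32). Of the 7 ephrins, 3 had a higher and 4 a lower mean after TBI.

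Slit1 was the most abundant of the 3 Slits. It was at 44.4, 41.2, 39.4, 28.3 and 35.8 FPKM in sham 1 to 5 and at 23.6, 50.8, 46.2, 42.6 and 37.8 in TBI 1 to 5. Every Slit1 value lay above every Slit3 value. Slit3 was at 13.6 to 16.9 FPKM in sham, at 14.4 to 18.1 in 4 TBI libraries and at 10.8 in TBI 1. The log2 differences were 0.06 for Slit1 (95% interval -0.38 to 0.49) and -0.03 for Slit3 (interval -0.32 to 0.25).

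Slit2 had the largest positive difference of the 58 genes. It was at 15.2, 10.9, 7.04, 5.58 and 5.70 FPKM in sham 1 to 5 and at 14.6, 13.5, 10.8, 14.6 and 8.46 in TBI 1 to 5. On the log2 scale each TBI library exceeded the mean of the sham libraries, but sham 1 was the highest library of all. The sham mean was 8.88 ± 4.12 FPKM and the TBI mean 12.4 ± 2.68 (SD, n = 5), a log2 difference of 0.53 (95% interval -0.06 to 1.13, limma's adjusted p = 0.983). It was 0.40 without sham 4 and 0.74 without sham 1.

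Of the Robos, the receptors of the Slits, Robo2 was the most even. It was at 12.8 to 14.8 FPKM in sham and at 11.4, 14.2, 14.1, 10.01 and 14.4 in TBI 1 to 5 (log2 difference -0.11, 95% interval -0.35 to 0.13, and -0.02 without TBI 4). Robo1 was at 7.63 ± 1.44 and 7.08 ± 2.36 FPKM (-0.14, interval -0.64 to 0.35), with its lowest value, 3.95, in TBI 1. Robo3, known from commissural axons, was at 0.764 to 3.501 FPKM in sham and 1.17 to 2.50 after TBI. Of the 6 genes tested in this family 2 had a higher and 4 a lower mean after TBI.

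The netrin system was led by a receptor. Unc5a, which mediates repulsion from netrin, was at 76.9, 69.1, 63.4, 57.2 and 60.3 FPKM in sham 1 to 5 and at 35.9, 79.4, 64.1, 79.3 and 55.1 in TBI 1 to 5. TBI 1 was again the lowest, and the log2 difference was -0.11 (95% interval -0.55 to 0.33). Unc5d and Unc5b had means of 12.9 and 11.2 FPKM, and Unc5c of 5.71. Unc5b was at 10.8 ± 1.86 and 11.6 ± 1.36 (0.11, interval -0.18 to 0.40), and Unc5c at 5.39 ± 1.07 and 6.02 ± 1.06 (0.15, interval -0.17 to 0.47). Unc50, included through its symbol alone, was the most even of the 58 tested genes, with a ratio of 1.30 between its highest and lowest library, at 25.1 ± 2.90 and 25.3 ± 1.63 FPKM (0.02, interval -0.18 to 0.21).

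The netrins themselves were low. Ntn1, the classical secreted attractant, was at 1.99, 1.22, 1.68, 2.14 and 2.22 FPKM in sham 1 to 5 and at 2.67, 1.81, 2.45, 1.08 and 2.39 in TBI 1 to 5, below every value of Ntn4. Ntn4, a netrin of basement membranes, was at 3.87 to 5.27 FPKM in sham and 3.15 to 7.51 after TBI, highest in TBI 1. The lipid-anchored netrin-Gs, which bind other partners than Dcc and the Unc5 receptors, were higher, with means of 18.4 FPKM for Ntng2 and 7.16 for Ntng1. Ntng1 was at 7.67 ± 1.30 and 6.65 ± 1.18 FPKM (log2 difference -0.19, 95% interval -0.52 to 0.13). The locus shared by Ntn3 and Tbc1d24 had a mean of 13.2 FPKM. Of the 10 genes tested in this family 5 had a higher and 5 a lower mean after TBI, and none passed limma's test.

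Genes that work with these families were read from a list of 74 co-receptors, adhesion molecules and cytoplasmic effectors, of which 64 were tested. None passed adjustment in limma's test, and 1 had an unadjusted p under 0.05, where 2.91% of all features did. The count was 0 without TBI 1 (2.81% of all features) and 0 without sham 4 (2.09%). It was 4 with array weights (8.14%), 4 without sham 2 (4.79%) and 4 without sham 2, sham 4 and TBI 1 (3.72%). Limma's other alternatives gave 1 or 2. On the log2 scale the mean was higher after TBI in 25 genes and lower in 39, or 60.9%, against 49.6% of all features. The median difference was -0.04. The summed level of the list was 2885 FPKM in TBI 1 and 3767 to 4211 in the other 9 libraries, and the part of this library in the counts by direction was not tested. The gene under 0.05 in limma's test was Ngef, the exchange factor ephexin that acts below EphA receptors. It was at 28.5, 41.7, 39.2, 49.4 and 34.8 FPKM in sham 1 to 5. In TBI 1 to 5 it was at 19.3, 31.9, 25.5, 32.3 and 32.2 (log2 difference -0.45, 95% interval -0.84 to -0.07, limma's adjusted p = 0.983). The exact permutation p of Ngef before adjustment was 0.0556. Its difference lay between -0.56 and -0.16 over the alternatives run. Limk1, a kinase that acts on cofilin, was at 17.9 ± 1.62 and 15.1 ± 2.58 FPKM (-0.26, interval -0.54 to 0.02), with a difference of -0.14 without TBI 1. The smallest p among the genes with a higher mean belonged to Cntn1, an adhesion molecule, at 122 ± 27.6 and 146 ± 15.9 FPKM (0.28, interval -0.04 to 0.61), and to Farp2, an exchange factor below semaphorin receptors. Farp2 was at 2.91 to 3.68 FPKM in sham and at 3.25 to 3.67 in TBI 2 to 5, but at 7.63 in TBI 1 (0.32, interval -0.12 to 0.75). Without TBI 1 the difference was 0.11.

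TBI 1 differed from the other libraries in many of the guidance genes. It had the lowest value of the 10 libraries in 24 of the 58 genes, or 41.4%, against 28.4% of all features, and the highest in 7, or 12.1%, against 22.1%. The 24 comprised 8 Eph receptors, 7 semaphorins, 3 plexins and neuropilins, 3 Slits and Robos, and 3 Unc5 receptors, but no ephrin. Epha5 was at 13.5 FPKM in TBI 1 and at 20.8 to 40.3 elsewhere, Ephb6 at 10.4 and 15.6 to 25.1, and Epha10 at 2.20 and 3.40 to 7.07. The 7 genes highest in TBI 1 were Sema3a, Sema3f, Efna5, Efna2, Epha2, Ntn1 and Ntn4. Of these, Sema3a met the minimum mean of 0.5 FPKM only through that library.

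Sema3a and Sema3f, secreted repellents that act through Nrp1 and Nrp2, were among the genes that stood apart in that library. Sema3a was at 0.388, 0.579, 0.341, 0.839 and 0.275 FPKM in sham 1 to 5, at 6.12 in TBI 1, and at 0.355, 0.278, 0.537 and 0.287 in TBI 2 to 5. The TBI 1 value was 17.2 times the median of the other 9 libraries. Without it the mean of Sema3a would lie under the minimum of 0.5 FPKM, so the gene was tested only through this library. Sema3f was at 0.714, 2.80, 1.78, 1.93 and 0.494 FPKM in sham, at 6.29 in TBI 1, and at 1.08, 1.17, 1.47 and 1.55 in TBI 2 to 5. The TBI 1 value was 4.27 times the median of the others, and that of Efna5 5.04 times. The sum of hippocampal neuron markers placed TBI 1 apart as well, at 1519 FPKM against 2246 to 3744 elsewhere. TBI 1 also had the highest sums of choroid plexus and of meningeal markers, 34441 and 949 FPKM. Those of sham 2 were close, at 32857 and 853. The mean centred log2 level of the meningeal list was highest in sham 4, at 1.61 against 1.57 in TBI 1. Sham 2 and sham 4, whose meningeal marker sums of 853 and 585 FPKM were the next highest, had the next highest Sema3a values, 0.579 and 0.839, above the 0.275 to 0.537 of the other 7 libraries. TBI 1 also held Neurod1, a transcription factor of immature granule neurons, at 46.3 FPKM, where the other libraries had 12.7 to 15.2, and Prkcd, a thalamic marker, at 17.7 against 2.62 to 9.43. The part of these tissues in the Sema3a and Sema3f values was not tested.

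**Figure D3:**
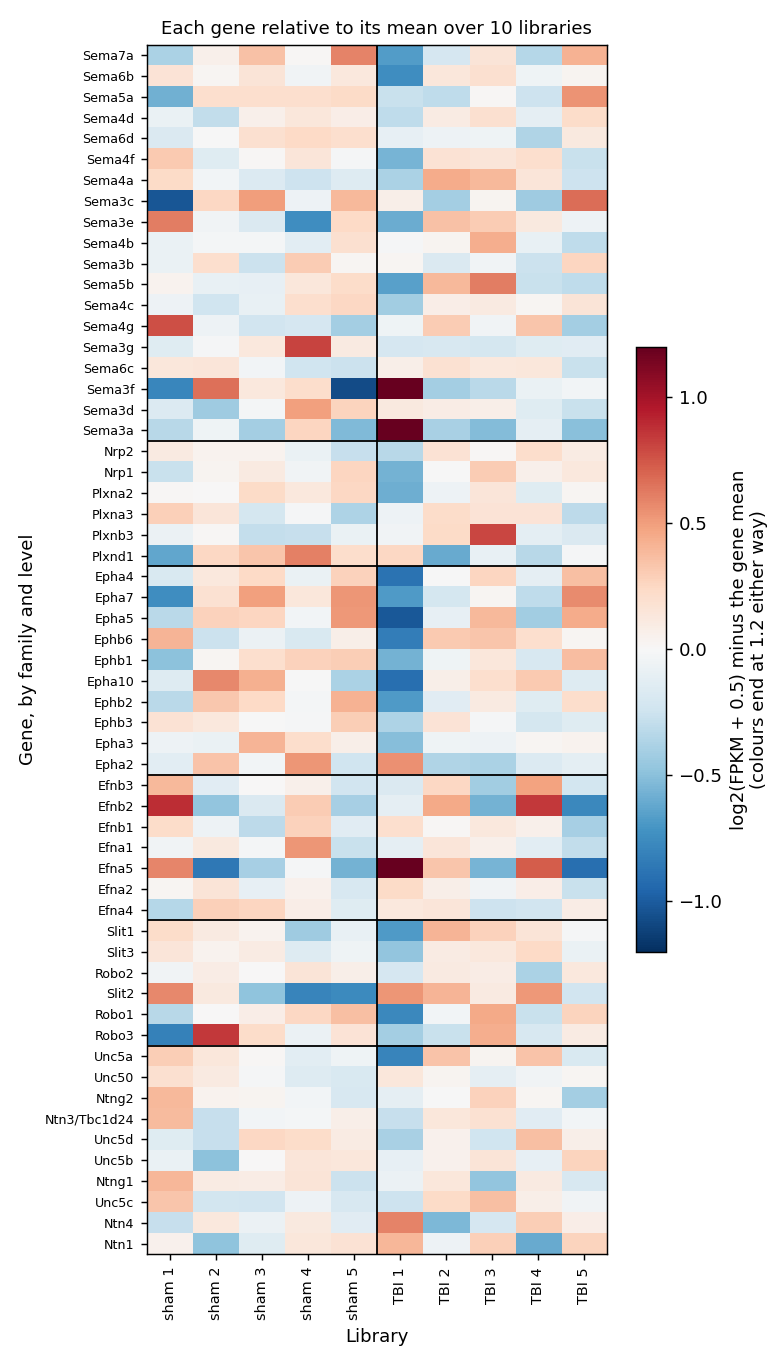
Log2(FPKM + 0.5) of each tested gene minus its mean over the 10 libraries (colour, red above and blue below the mean); rows are genes by family and level, columns the libraries. TBI 1 has the lowest value in 24 genes, among them 8 Eph receptors, and is red in Sema3a, Sema3f and Efna5.

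Several guidance genes divided the libraries in one and the same way, setting 1 sham and 3 TBI libraries against the other 6. In sham 1, TBI 1, TBI 2 and TBI 4, 9 of the 58 genes had their 4 lowest values and 2 their 4 highest, together 19.0% of the genes against 3.80% of all features. These 4 libraries were picked after the values had been seen, and the genes are not independent of each other, so the shares are a description. The 9 genes were Epha5, Epha7, Ephb1, Ephb2, Sema5a, Sema6d, Sema7a, Robo1 and Robo3, and the 2 genes were Efna5 and Slit2. Epha7 was at 20.4, 21.5, 29.8 and 27.9 FPKM in sham 1, TBI 1, TBI 2 and TBI 4, and at 35.2 to 51.5 in the other 6. Epha5 was at 13.5 to 26.0 FPKM in the 4 libraries and at 27.3 to 40.3 in the other 6. Ephb1 was at 9.68 to 14.1 against 14.9 to 19.1, and Sema7a at 42.2 to 58.5 against 67.9 to 102. Efna5, a ligand of Epha5 and Epha7, ran the other way, at 3.14 to 8.48 FPKM in the 4 libraries and 1.04 to 2.35 in the other 6. Slit2 was at 13.5 to 15.2 against 5.58 to 10.9.

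Of the 6 immature granule neuron markers, Calb2 and Dcx divided the libraries in the same way, while Neurod1, Sox4, Sox11 and Igfbpl1 did not. The list summed to 46.0 to 95.2 FPKM in the 4 libraries and to 34.7 to 41.1 in the other 6, but its mean centred log2 level overlapped, at -0.12 to 0.72 against -0.41 to -0.0091. Calb2, the calcium-binding protein calretinin, was at 15.8, 23.8, 18.3 and 17.2 FPKM in sham 1, TBI 1, TBI 2 and TBI 4, and at no more than 10.2 elsewhere. Dcx, the microtubule protein doublecortin of young neurons, was at 3.52 to 4.54 FPKM against 2.31 to 3.04. Of the 10 hippocampal neuron markers found, only Wfs1 divided the libraries in this way, and narrowly, at 64.0 to 90.09 FPKM against 90.15 to 264.9. The hippocampal neuron markers summed to 1519 to 2606 FPKM in the 4 libraries and to 2361 to 3744 in the others, which overlapped. The meningeal marker sums overlapped too, at 58.0 to 949 against 53.9 to 853. Whether the pieces of hippocampus differed in position or cell content was not tested.

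**Figure D4:**
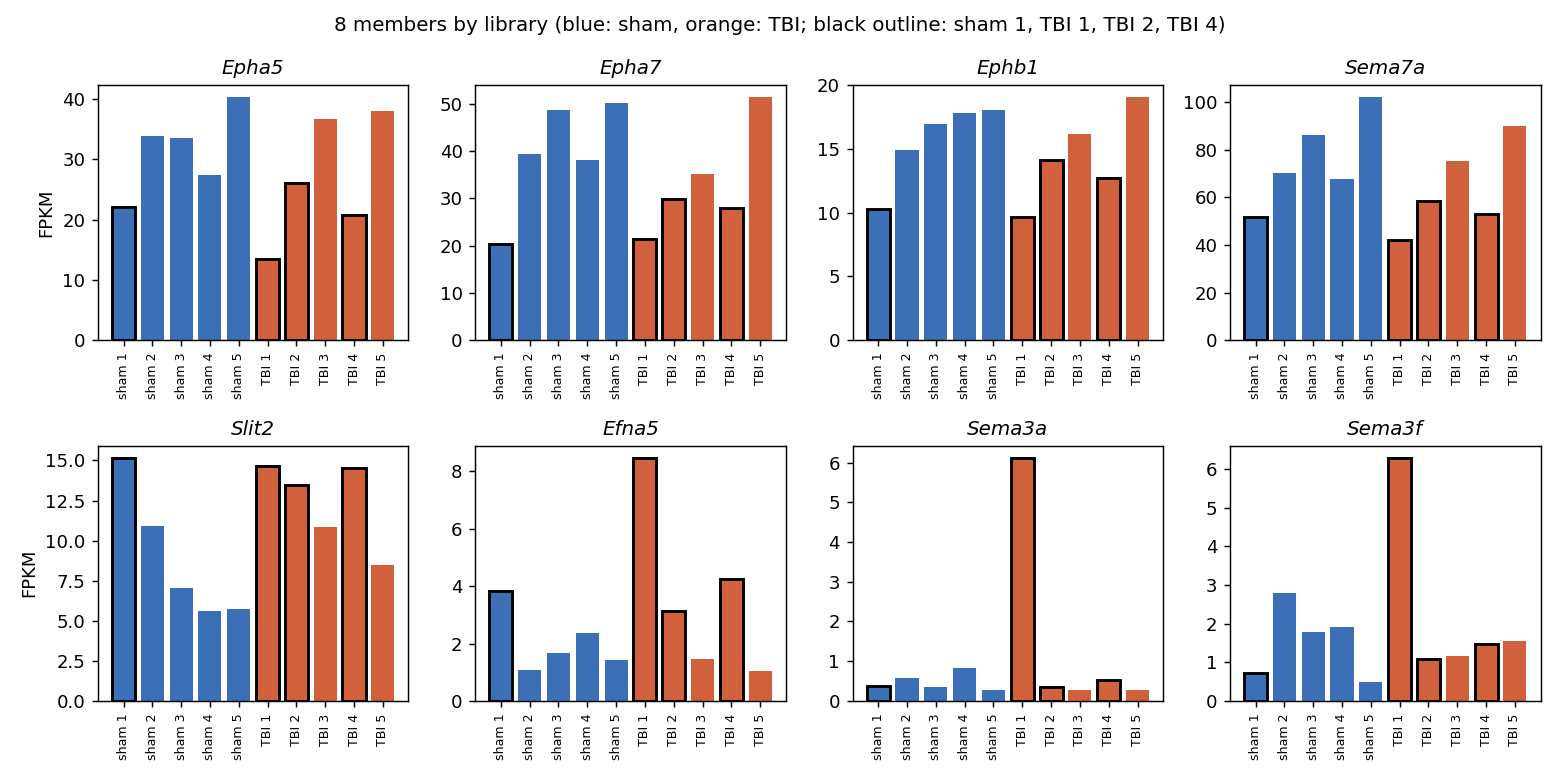
FPKM of 8 guidance genes in each library (bars from 0; blue sham, orange TBI; black outlines mark sham 1, TBI 1, TBI 2 and TBI 4). The outlined bars are the lowest for Epha5, Epha7, Ephb1 and Sema7a and the highest for Slit2 and Efna5, while only TBI 1 stands apart in Sema3a and Sema3f.

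The 250 bases upstream of the start of Efna5 and of 3 genes that ran against it are shown so that the ligand and the genes of the opposite pattern can be compared. They come from RefSeq in the GRCr8 build, where 48 of the 62 genes had an entry, whereas the expression values rest on the rn5 build. Each sequence is given 5′ to 3′ on the strand of its gene. Efna5 lies at chr9:110042188-110042437 on the minus strand, Epha5 at chr14:24007872-24008121, Epha7 at chr5:47771643-47771892 and Sema7a at chr8:67244068-67244317, all 3 on the plus strand. Capitals mark matches, on either strand, to the GC box GGGCGG, the CCAAT box CCAAT and the TATA box TATAAA, motifs that do not overlap each other in these sequences.
Efna5: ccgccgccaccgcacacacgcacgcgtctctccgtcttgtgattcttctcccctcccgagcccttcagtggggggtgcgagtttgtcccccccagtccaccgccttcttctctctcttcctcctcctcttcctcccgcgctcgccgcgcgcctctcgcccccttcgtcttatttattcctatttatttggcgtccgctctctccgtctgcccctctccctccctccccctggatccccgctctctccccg
Epha5: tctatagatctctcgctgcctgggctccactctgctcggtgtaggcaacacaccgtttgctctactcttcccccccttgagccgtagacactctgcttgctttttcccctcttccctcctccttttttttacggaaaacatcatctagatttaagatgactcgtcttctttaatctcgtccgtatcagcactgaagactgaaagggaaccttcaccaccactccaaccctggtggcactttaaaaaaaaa
Epha7: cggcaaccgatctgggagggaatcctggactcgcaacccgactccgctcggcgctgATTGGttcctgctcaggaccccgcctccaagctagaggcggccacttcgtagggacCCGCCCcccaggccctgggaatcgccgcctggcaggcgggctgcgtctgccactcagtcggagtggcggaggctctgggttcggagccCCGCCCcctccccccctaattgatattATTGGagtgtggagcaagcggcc
Sema7a: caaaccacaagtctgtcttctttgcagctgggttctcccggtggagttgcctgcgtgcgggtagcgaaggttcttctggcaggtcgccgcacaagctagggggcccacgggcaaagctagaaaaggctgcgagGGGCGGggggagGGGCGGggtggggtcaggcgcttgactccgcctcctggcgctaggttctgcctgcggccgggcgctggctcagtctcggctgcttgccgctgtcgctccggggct

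Epha7 held 2 GC boxes and 2 CCAAT boxes, and Sema7a 2 GC boxes. Efna5 and Epha5 held none of the 3 motifs. Over 33469 upstream sequences of the same length, 30.5% held a GC box, 34.0% a CCAAT box and 12.9% a TATA box. The dinucleotide CG occurred 23 times in Efna5, 20 times each in Epha7 and Sema7a and 8 times in Epha5, against a median of 5 over all of these sequences. A match describes letters in this window and is not a measured binding site.

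The spread between libraries differed from gene to gene. The ratio of the highest to the lowest library had a median of 2.12 over the 58 genes, was under 2 in 28 of them and was over 3 in 8, namely Sema3a, Sema3c, Sema3f, Epha2, Epha10, Efna5, Efnb2 and Robo3. Sema3c was at 4.46 FPKM in sham 1 and 15.6 in TBI 5, which held its lowest and highest values. Sema4g was at 7.26 in sham 1 against 2.94 to 3.85 in the other sham libraries. Sema3e was at 4.30 to 11.8 in sham and 4.81 to 9.77 after TBI.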

How the data were processed

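Poly-A RNA of 5 sham and 5 TBI hippocampal libraries had been sequenced on an Illumina instrument, as the labels' protocols state. Values in FPKM for 25269 loci were deposited by the authors. TopHat, TopHat2, Bowtie, Bowtie2, Cufflinks, Cuffdiff and the rn5 build are named in the submitters' processing notes, without roles or versions. Annotation, filters and strand use: not given in the sources used here. A locus of several genes, or overlapping genes, cannot be divided. Every guidance locus carried the status OK.

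Loci that share a symbol were summed per library, over the whole table. Features with a mean of at least 0.5 FPKM were tested with limma 3.58.1 (R 4.3.3) on log2(FPKM + 0.5). Its two-sided moderated test took the variance prior from a trend on mean level, and p-values were adjusted by Benjamini-Hochberg over all 16194 features. An exact permutation test, also two-sided, used the 252 possible assignments of the libraries. The procedure was tested on simulated data. FPKM are no counts, so no count test was run, the depth is unknown and precision comes from the spread between libraries.

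The genes described, the lists and the alternatives were chosen with earlier results of these data known. In each family the 3 genes with the smallest p and the 2 with the highest mean are given with their test, and from the list of partner genes the 2 with the smallest p in each direction; other genes are given by level, and those singled out for their library pattern were chosen after their values were seen. Alternatives covered pseudocount, filter, scaling, variance model, array weights, loci as deposited, the replicate number as a block, and libraries left out.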

Additional observations from a re-analysis of the deposited data

Results flagged for a closer look

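In 10 of 116 groups of 5 libraries (58 genes, sham and TBI), 1 library lay so far from the others that its gap to the nearest, as a share of the group's range, exceeded 0.71. Chance alone gives about 1 in 20 such groups where values are normally distributed and genes independent, which need not hold for FPKM. The share over all features was not computed. TBI 1 was the library in 5 of the 10 groups. The TBI 1 value was high in Sema3a (gap 0.956 of the range), which met the minimum of 0.5 FPKM only through it. It was also high in Sema3f (0.909), and in Epha2 (0.786), at 1.11 FPKM against 0.346 to 0.510 in the other TBI libraries. It was low in Epha3 (0.786), at 1.97 FPKM against 2.89 to 3.14, and in Sema4c (0.742), at 3.03 against 4.30 to 4.74. Sham 1 was low in Sema5a (0.963), at 16.1 FPKM where the other sham libraries had 28.0 to 28.5, and high in Sema4g (0.790) and Unc5c (0.743). Sham 4 was high in Sema3g (0.781). TBI 5 was low in Sema6c (0.726), at 3.25 FPKM against 4.24 to 4.62.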

How the results depend on the processing

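No guidance gene and no partner gene passed adjustment in limma's test under any alternative run or in the exact permutation test. Over all features the count was 0, except 2 without sham 2, sham 4 and TBI 1, and 0 to 2 when single libraries were left out. At an unadjusted p under 0.05 limma counted 0 of the 58 guidance genes, but 6 with array weights (8.14% of all features), 4 with the replicate block (4.15%), 4 without sham 1 (4.32%) and 0 or 1 under the other alternatives. The replicate numbers did not pair the libraries, with correlations of -0.38 to 0.31 between libraries of one number, and with the replicate block the counts past adjustment were 0 as well. Of 33 genes given with a test, 22 kept the sign of their difference in all alternatives run, though with 1 library left out some came close to 0: Sema6b to -0.0055, Unc5b to 0.0044, Nrp2 to 0.0084, Robo2 to -0.02. The sign turned with array weights in Slit3 (0.071), Efnb3 (0.11), Efnb2 (0.22), Unc5a (0.12) and Nrp1 (0.0071). Without sham 2, sham 4 and TBI 1 it turned in Epha4 (0.015), Slit3 (0.035), Robo1 (0.070), Efna1 (0.058), Efna4 (0.019), Unc5a (0.046), Unc50 (-0.023) and Nrp1 (0.088). With 1 library left out, differences ran from -0.26 to 0.049 in Epha4, -0.042 to 0.23 in Slit1, -0.10 to 0.082 in Slit3, -0.28 to 0.032 in Robo1, -0.16 to 0.065 in Efnb3, -0.28 to 0.16 in Efnb2, -0.14 to 0.016 in Efna4, -0.20 to 0.079 in Unc5a, -0.025 to 0.068 in Unc50 and -0.11 to 0.10 in Nrp1. The cause was not tested. The depth is unknown, so low genes such as Sema3a and Efna4 carry an error that cannot be given.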

Other observations

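Plxnb2, a receptor of class 4 semaphorins, was measured only in a locus shared with a microRNA gene, Mir349, and is not among the 62 genes. The locus was at 9.20, 15.9, 13.8, 11.5 and 10.8 FPKM in sham 1 to 5, at 25.6 in TBI 1, and at 8.71, 15.02, 13.2 and 15.6 in TBI 2 to 5. TBI 1, where Sema3a and Sema3f also had their highest values, was thus the highest library here too.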
